A study of Mus musculus with 6 samples.

Results

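The miR-26 family of the mouse comes from 3 hairpin loci, Mir26a-1, Mir26a-2 and Mir26b, and each yields a 5p and a 3p arm. Its members were taken by name as the sense entries of these loci, which gave 6 of the 1026 sense entries and of the 1102 entries in all. Small RNA was sequenced from 6 hearts, 1 library each, of male C57BL/6J mice that were wild-type and 18 weeks of age. They are called heart 1 to heart 6 by the replicate number in the labels. All samples form 1 untreated group of 1 inbred strain, so the comparisons are between arms, loci and hearts. The labels name whole heart as the tissue, but their protocol describes the ventricular apex. The libraries held between 3966169 and 6007322 counts.

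MicroRNAs are cut from the arms of a hairpin and guide Argonaute proteins to messenger RNAs, mainly through the seed, bases 2 to 8 counted from the 5′ end. The miR-26 hairpins lie inside genes for small phosphatases that act on the C-terminal domain of RNA polymerase II. The family is known from differentiated tissues, including heart, and the histone methyltransferase Ezh2 is a well-known target. Because adapters ligate to some sequences better than to others, ratios between arms or miRNAs are given as ratios of reads, not of molecules.

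The mature sequences below, from RefSeq on GRCm38, show what the loci share and what tells them apart, with the seed in capitals. All 6 entries have a RefSeq sequence.
miR-26a-5p: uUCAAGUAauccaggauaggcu
miR-26b-5p: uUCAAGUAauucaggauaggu
miR-26a-1-3p: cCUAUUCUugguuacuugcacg
miR-26a-2-3p: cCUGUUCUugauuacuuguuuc
miR-26b-3p: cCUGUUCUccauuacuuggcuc

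The 5p arm of Mir26a-1 and Mir26a-2 is the same 22 bases. It differs from miR-26b-5p at 2 of the 21 bases compared, C11U and C21U, with the miR-26a base first and positions counted from the 5′ end. All 5p arms carry the seed UCAAGUA, and among 1679 mature names in the RefSeq table only miR-26a-5p and miR-26b-5p have it. The 3p arms differ at each locus. miR-26a-1-3p differs from miR-26a-2-3p at 6 of 22 bases and from miR-26b-3p at 8, while miR-26a-2-3p and miR-26b-3p differ at 4. The difference A4G lies in the 3p seed, so miR-26a-2-3p and miR-26b-3p share the seed CUGUUCU and miR-26a-1-3p has CUAUUCU.

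The hairpins, with both arms in capitals, place these sequences in their precursors and show where a read of the 5p arm could tell Mir26a-1 from Mir26a-2.
Mir26a-1: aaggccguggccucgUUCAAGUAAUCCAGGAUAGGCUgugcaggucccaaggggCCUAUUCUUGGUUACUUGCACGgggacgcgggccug
Mir26a-2: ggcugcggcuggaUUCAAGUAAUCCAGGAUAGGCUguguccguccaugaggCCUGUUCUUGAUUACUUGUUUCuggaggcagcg
Mir26b: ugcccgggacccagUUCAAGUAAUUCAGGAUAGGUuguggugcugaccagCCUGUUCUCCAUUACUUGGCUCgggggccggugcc

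The base before the 5p arm differs between the miR-26a hairpins, and the next 3 bases after it are the same. A read that covers only this shared run of 25 bases matches Mir26a-1 and Mir26a-2 alike. How such reads were divided is not given in the sources used here.

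On GRCm38 all 3 hairpins lie on the plus strand, in the sense of their host gene, and no other annotated gene overlaps them. Mir26a-1 (ENSMUST00000083579) lies on chromosome 9 from 119031796 to 119031885, in intron 5 of the 8-exon transcript of Ctdspl. Mir26a-2 (ENSMUST00000083496) lies on chromosome 10 from 126995530 to 126995613, in intron 5 of the 8-exon transcript of Ctdsp2. Its last base is also the first base of a shorter Ctdsp2 transcript that starts at 126995613. Mir26b (ENSMUST00000083534) lies on chromosome 1 from 74394310 to 74394394, in intron 4 of the 7-exon transcript of Ctdsp1. The host genes are homologous phosphatases, and the files hold no messenger RNA, so their levels were not analysed here.

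The 5p arms made up nearly all miR-26 reads, and miR-26a-5p led them. The family held 4.42% ± 0.585 (SD, n = 6) of the counts. Levels are given in CPM, counts per 1000000 counts of the library. Summed over its loci, miR-26a-5p stood at 33353, 35581, 36863, 45599, 46516 and 39549 CPM in hearts 1 to 6, or 39577 ± 5413 CPM (SD, n = 6). Hearts 4 and 5 were the highest, and the highest heart was 1.39-fold above the lowest. miR-26b-5p stood at 4253, 4152, 4497, 5317, 5065 and 4599 CPM in the same hearts, or 4647 ± 458 CPM. Hearts 4 and 5 were again the highest, with a 1.28-fold range. By mean CPM, miR-26a-5p came 7 and miR-26b-5p 23 among the 983 mature miRNAs.

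The neighbours in this order were close below and distant above. miR-27b-3p, next below miR-26a-5p, averaged 36017 ± 1960 CPM, and miR-26a-5p was the higher in 4 of 6 hearts, so their order did not hold beyond the spread. miR-30a-5p, next above at 57611 ± 3289 CPM, was higher in every heart. Likewise miR-26b-5p was above miR-125a-5p (4491 ± 650 CPM) in 4 of 6 hearts, and below miR-29a-3p (6077 ± 684 CPM) in all 6.

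The 3p arms were rare, and the most abundant of them came from Mir26b. miR-26b-3p stood at 15.1, 14.1, 18.9, 21.2, 18.3 and 17.5 CPM in hearts 1 to 6, or 17.5 ± 2.59 CPM, from 514 reads in all. miR-26a-2-3p stood at 4.20, 3.42, 2.84, 2.52, 4.99 and 3.21 CPM, or 3.53 ± 0.916 CPM, from 107 reads. miR-26a-1-3p had 2, 1, 0, 3, 2 and 2 reads in these hearts, 10 in all, or 0.339 CPM pooled over the libraries (exact Poisson 95% interval 0.162 to 0.623). The 0 in heart 3 allows a level of up to 0.710 CPM (3 counts), and such limits and intervals cover counting error only. The ranges of the 3 arms over hearts did not overlap, with miR-26b-3p above miR-26a-2-3p and miR-26a-1-3p lowest. The only antisense entry at these loci, opposite miR-26a-1-3p, had 1 read.

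**Figure D1:**
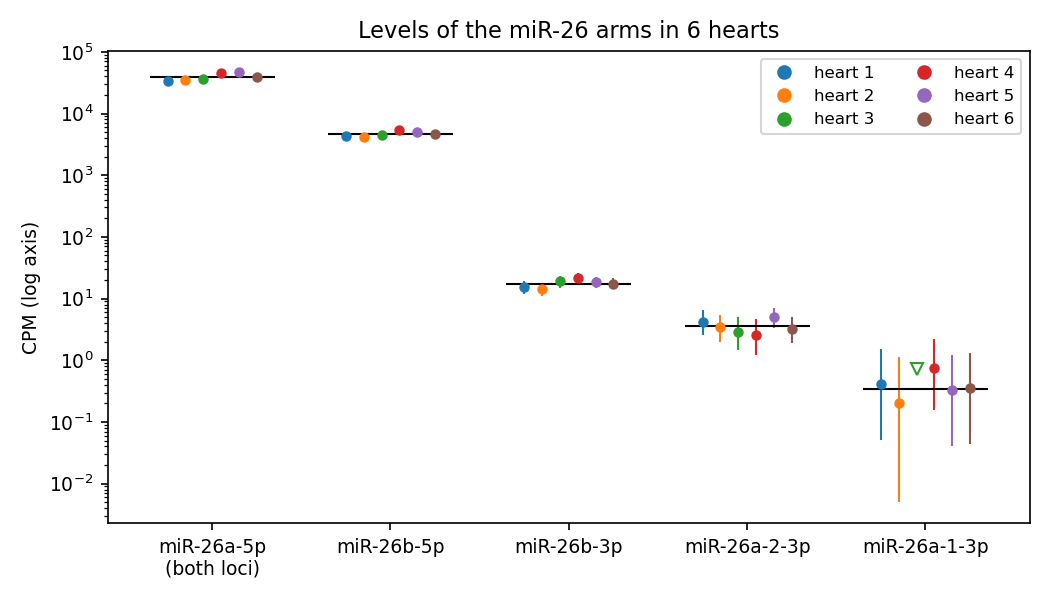
Level of each miR-26 arm in CPM on a log axis, with 1 point per heart, exact Poisson 95% intervals as vertical lines and the mean of the 6 hearts as a horizontal line. The open triangle marks the limit of 3 counts for heart 3, which had 0 reads of miR-26a-1-3p. The 5 arms occupy separate ranges, from about 39577 CPM for miR-26a-5p to under 1 CPM for miR-26a-1-3p.

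The order of miR-26a and miR-26b was opposite on the 5p and 3p arms. On the 5p arm, miR-26a was 8.48-fold above miR-26b (log2 ratio 3.08 ± 0.05, SE, n = 6, edgeR quasi-likelihood test, adjusted p = 1.16e-18). Heart by heart, miR-26a-5p had 7.84, 8.57, 8.20, 8.58, 9.18 and 8.60 reads per read of miR-26b-5p, so the ratio varied little. On the 3p arm, miR-26a, with its loci summed, was 4.40-fold below miR-26b (log2 ratio -2.14 ± 0.16, SE, adjusted p = 1.27e-09), and it was lower in 6 of 6 hearts. These summed pairs were fitted as an addition made after the data were examined. Whether reads were booked across the few bases by which miR-26a-5p and miR-26b-5p differ was not tested.

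Locus by locus, each of the 6 possible same-arm pairs of miR-26 entries differed, but so did 95.8% of the 259 same-arm pairs of entries that share a miRNA number, so the calls as such are not particular to miR-26. The pair of miR-26a 5p entries has 1 mature sequence, and its ratio is not read as a difference between the loci. miR-26a-1-3p was below miR-26a-2-3p, with 10 reads against 107 (log2 ratio -3.32 ± 0.35, SE, adjusted p = 4.21e-07, lower in 6 of 6 hearts). It was 47.9-fold below miR-26b-3p (log2 ratio -5.58 ± 0.25, SE, adjusted p = 2.01e-11). miR-26a-2-3p was 4.81-fold below miR-26b-3p (log2 ratio -2.27 ± 0.17, SE, adjusted p = 8.57e-09, lower in 6 of 6).

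Both miR-26 names gave mainly 5p reads, miR-26a far more so than miR-26b. For this comparison each arm was summed over the loci of 1 name, so that miR-26a stands for Mir26a-1 and Mir26a-2 together, with their different 3p arms. Of 213 names tested, 48.4% were called with more 5p reads (adjusted p under 0.05 and at least 2-fold), and miR-26a and miR-26b were among them. miR-26b gave 281, 295, 238, 251, 277 and 263 reads of 5p per read of 3p in hearts 1 to 6. miR-26a gave 7219, 9818, 12984, 13912, 8732 and 11079. No heart brought miR-26a and miR-26b near each other, and the miR-26a ratios rest on only 12 to 32 reads of 3p per heart. Pooled, miR-26b had 267 reads of 5p per read of 3p (exact binomial 95% interval 245 to 292) and came 26 in the order of 5p excess. Pooled, miR-26a had 10028 (8367 to 12125) and came 1, but the next name, miR-149, had 9113 from 3 reads of its 3p arm, so these places are not separated.

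The log2 ratio of 5p to 3p averaged 8.04 ± 0.11 (SD) for miR-26b and 13.26 ± 0.33 for miR-26a. The difference, miR-26b minus miR-26a, was -5.22 ± 0.43 (SD, n = 6) and negative in 6 of 6 hearts. An exact sign-flip permutation test over hearts, two-sided, gave p = 0.031, the smallest that 6 hearts can give. In the fit across names both ratios had adjusted p-values of 0 to machine precision (edgeR). That fit took 1 common spread for all names, so the p-values say nothing of the spread of miR-26 itself.

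**Figure D2:**
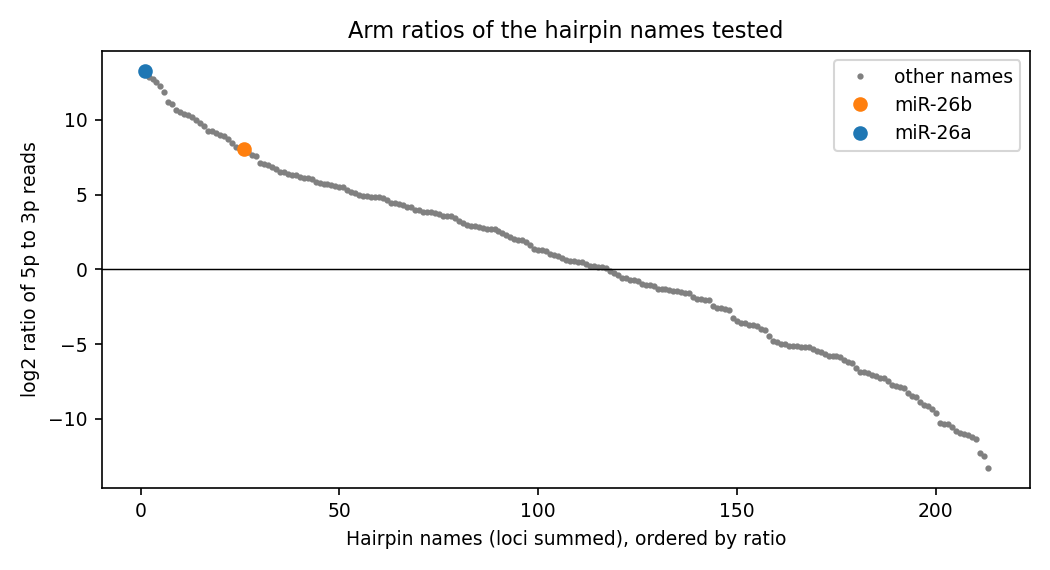
Fitted log2 ratio of 5p to 3p reads for the 213 names tested, with loci of 1 name summed, ordered from the highest to the lowest. miR-26b lies at 8.06 and miR-26a at the upper end at 13.29.

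Summed over its hairpins, the miR-26 family had a smaller share of 3p reads than let-7 and miR-30, the families chosen for comparison. The sums hide differences within families. Reads of 5p per read of 3p ran from 13.8 in miR-30e to 227 in miR-30d, near the 267 of miR-26b. In let-7 they ran from 1.28 in let-7d to 127 in let-7g. The 3p arms held 0.0485% ± 0.00335 of the miR-26 reads, 5.56% ± 0.448 of the let-7 reads (13 hairpins) and 2.44% ± 0.324 of the miR-30 reads (6 hairpins). The log2 ratio of 5p to 3p was higher in miR-26 than in let-7 by 6.92 ± 0.09 and higher than in miR-30 by 5.68 ± 0.19 (SD, n = 6). Each difference held in 6 of 6 hearts, with exact sign-flip permutation p = 0.031, adjusted p = 0.031 over the 2 comparisons, and 0.031 as the smallest p possible.

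The 2 miR-26a loci were not equally represented on either arm, and Mir26a-2 had most of the reads on both. Of the shared 5p reads, 23.2%, 22.6%, 22.0%, 21.6%, 22.2% and 22.1% were booked on Mir26a-1 in hearts 1 to 6, or 22.3% ± 0.565 (SD, n = 6). This division was nearly constant over hearts. The output of the loci and the booking of reads that match both cannot be told apart in it. In CPM, the Mir26a-1 entry of the 5p arm averaged 8804 ± 1063 and the Mir26a-2 entry 30773 ± 4362.

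The 3p arms, whose sequences differ, gave 10 of 117 reads to Mir26a-1, or 8.55% (Clopper-Pearson 95% interval 4.17 to 15.2%). By heart this share was 9.09%, 5.56%, 0%, 23.1%, 6.25% and 10%, each from 12 to 32 reads. No difference between the 6 hearts beyond counting was detected in it (Fisher's exact test, p = 0.494), though 10 reads leave little power to find one. A comparison chosen after the values were seen set the Mir26a-1 share on the 5p arm against that on the 3p arm. The 5p share was higher in 5 of 6 hearts, by 13.3 ± 7.94 percentage points on average, which did not pass the threshold (exact sign-flip permutation test, two-sided, p = 0.0625). Heart 4, with 3 of 13 reads of the 3p arm on Mir26a-1, was the exception.

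Other miRNAs with 2 loci, 1 shared arm and different sequences on the other arm showed such gaps too. Of 17 miRNAs with a shared arm at 2 loci, 4 had different RefSeq sequences found on the other arm and at least 100 reads of it. A RefSeq sequence was found for only 752 of the 1026 sense entries. Some miRNAs outside these 4 may therefore also differ on the other arm. In miR-26a, Mir26a-1 held 22.3% of the shared arm and 8.55% of the other arm. The first locus held 29.6% and 6.93% in miR-125b, 7.11% and 35.3% in miR-16, and 9.92% and 40.1% in miR-30c. The gap of miR-26a was the smallest of the 4, and in each of them the same locus led on both arms. In others the lead changed. With fewer than 100 reads, the first locus of miR-218 held 28.4% of the shared arm and 84.2% of 38 reads of the other arm (Clopper-Pearson 95% interval 68.7 to 94.0%). In miR-450 it held 24.8% and 83.3% of 24 reads (62.6 to 95.3%). The change was not limited to low counts. In miR-181a the first locus held 54.7% and 17.2% of 10666 reads (16.5 to 17.9%). No different RefSeq sequences were found on its other arm, which does not show that they are the same. In miR-199a, also without different RefSeq sequences, the same locus led on both arms (43.3% and 24.9% for the first locus).

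**Figure D3:**
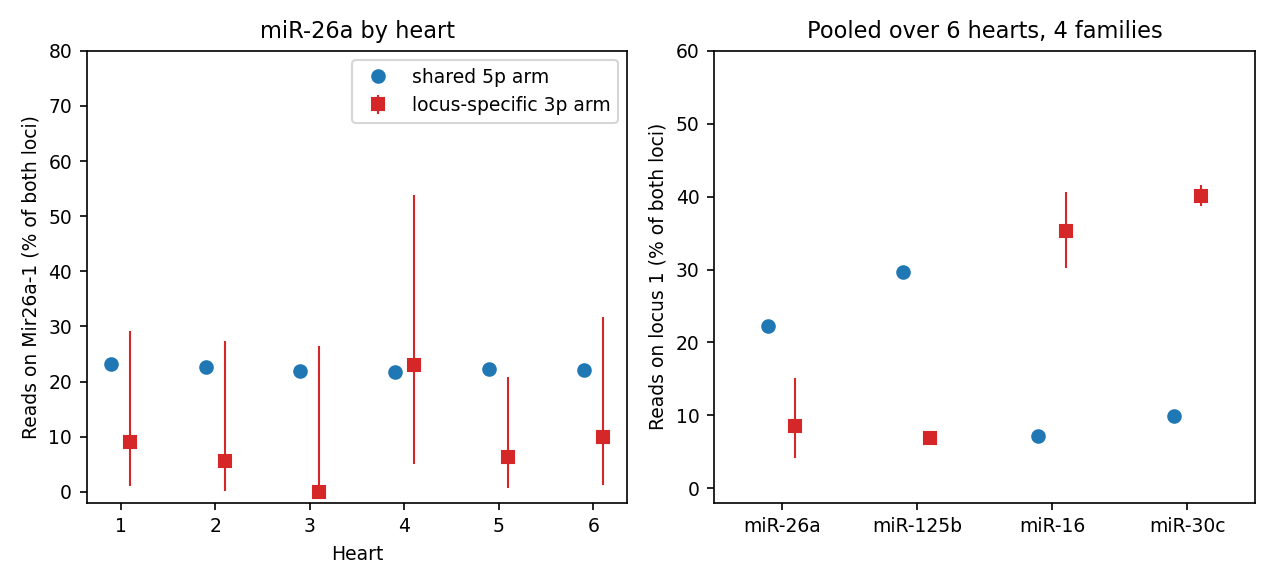
Left, the percentage of miR-26a reads on Mir26a-1 in each heart, for the shared 5p arm (circles) and the locus-specific 3p arm (squares, with Clopper-Pearson 95% intervals). Right, the same percentage for locus 1 of 4 miRNAs with 2 loci, pooled over the hearts. The 5p share of miR-26a stays near 22.3%, and the 3p share lies lower in 5 of 6 hearts with wide intervals.

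Between hearts the abundant miR-26 arms varied beyond counting noise, while no such variation was detectable in the rare arms at their depth. In a chi-square test of the 6 counts, 72.2% of the 349 mature miRNAs that averaged 10 reads or more varied (adjusted p under 0.05). Of the 4 miR-26 arms tested, miR-26a-5p (adjusted p of 0 to machine precision) and miR-26b-5p (adjusted p = 8.42e-225) varied. miR-26b-3p (adjusted p = 0.152) and miR-26a-2-3p (adjusted p = 0.354) did not pass, and miR-26a-1-3p was below the minimum. The 5p arms averaged 195536 and 22861 reads per library, depths at which this test detects small differences.

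After TMM scaling, edgeR's correction for library composition, the coefficient of variation (CV, SD over mean) was 10.01% for miR-26a-5p and 5.66% for miR-26b-5p. Among the 209 miRNAs that averaged 100 reads or more these were the 75th and the 14th lowest, against a median of 12.2%. On library totals, the scale of the chi-square test, the CVs were 13.7% and 9.86%. For miR-26b-3p the CV after TMM scaling was 10.8%, equal to the 10.8% that counting alone gives at its mean of 85.7 reads, and 14.8% on library totals. For miR-26a-2-3p it was 26.01%, next to 23.7% from counting.

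Hearts 4 and 5, the highest in miR-26a-5p, also stood apart in miRNAs listed as markers of other tissues. Heart 4 had 28.0 CPM over 3 pancreas markers against 0.630 to 2.16 in the others. Heart 5 had 2083 CPM over 2 cartilage markers (the arms of miR-140) against 690 to 904 in the others. The miR-140 arms were thus present in every heart. Other markers differed between hearts as well, but not all in the order of the miR-26 levels. The 2 erythroid markers summed to 5691, 5005, 3617, 2176, 3986 and 2396 CPM in hearts 1 to 6, highest in hearts 1 and 2. The liver marker stood at 9.03 and 16.9 CPM in hearts 1 and 2, against 46.4 to 74.4 CPM in the others. The sum of the 2 smooth muscle markers was lowest in heart 4 at 65604 CPM and highest in heart 5 at 113480 CPM. Both hearts were high in miR-26a-5p. Of the 2, miR-145a-5p was also highest in heart 5 at 1015 CPM. It was lowest in heart 6 at 558 CPM, not in heart 4 (780 CPM). The 5 cardiomyocyte markers summed to between 94316 and 106582 CPM in every heart. Most of this sum was miR-133a-3p, and the 5 did not move alike. In heart 5, miR-133a-3p (83533 CPM), miR-208a-3p (879 CPM) and miR-499-5p (1007 CPM) were at their lowest. In the same heart miR-1a-3p (8709 CPM) and miR-208b-3p (189 CPM) were at their highest. The skeletal muscle marker, miR-206-3p, was at 0 in 5 hearts and at 0.252 CPM in heart 4. Without hearts 4 and 5, which was added for the levels after the data were examined, miR-26a-5p averaged 36336 ± 2586 CPM and miR-26b-5p 4375 ± 208 CPM. The part of these markers in the miR-26 levels was not tested.

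miR-26a-5p and miR-26b-5p tended to move together over the hearts, though this did not pass adjustment. On log2 CPM after TMM scaling, Pearson's r was 0.92 (exact permutation p = 0.0472, two-sided, adjusted p = 0.468 over 208 miRNAs set against miR-26a-5p). Spearman's rho was 0.77 (exact permutation p = 0.103, adjusted p = 0.594). With hearts 1 and 5 left out, where miR-26a-5p lay farthest from its median, r was 0.96 over 4 hearts. Of the 208 relations with miR-26a-5p, 0, or 0%, had an adjusted p under 0.05 with this exact permutation test, while 21 were under 0.05 before adjustment. The smallest exact p with 6 hearts is 0.00278, and at least 12 of the 208 relations would have to reach it for any to pass, so the count of 0 says little.

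The patterns most like the 5p arms, by Pearson's r over the 6 hearts and given as a description, came from miRNAs of other numbers as well. For miR-26a-5p they were miR-338-3p (r = 0.96), miR-574-3p (0.93), miR-26b-5p (0.92), miR-541-5p (0.88) and miR-365-3p (0.88). For miR-26b-5p they were miR-365-3p (0.92), miR-26a-5p (0.92), miR-676-3p (0.92), miR-30d-5p (0.91) and miR-574-3p (0.87). These r come from the same 6 libraries and were picked as the highest of 208. Negative relations were as strong. For miR-26b-5p the lowest r, chosen after the values were seen, was that of miR-486-5p (r = -0.96, exact permutation p = 0.00278, adjusted p = 0.144). For miR-26a-5p it was that of miR-24-5p of locus Mir24-2 (r = -0.99, exact permutation p = 0.00556, adjusted p = 0.257). Of the relations with miR-26b-5p, 30 were under 0.05 before adjustment.

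**Figure D4:**
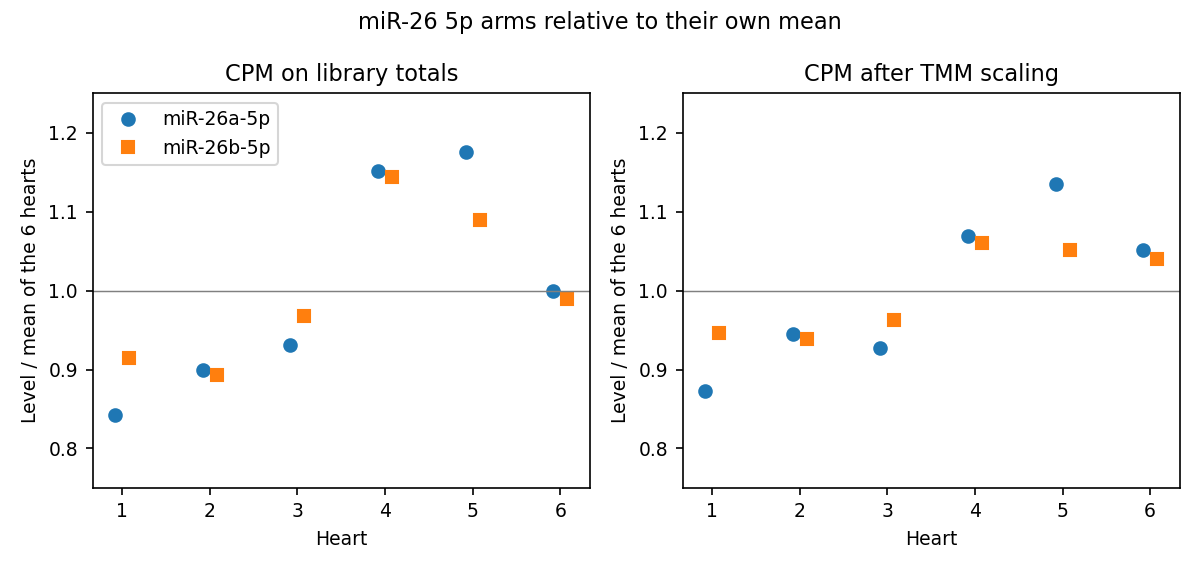
Level of miR-26a-5p (circles) and miR-26b-5p (squares) in each heart divided by its own mean over the 6 hearts, for CPM on library totals (left) and after TMM scaling (right). Hearts 1 to 3 lie below the mean of both arms on either scale, and hearts 4 and 5 above it.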

How the data were processed

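Small RNA of 6 mouse hearts was analysed from deposited read counts. Per the file headers, the authors' files give a count per mature miRNA arm and locus, and the counts are whole numbers that were not normalized. Per the submitters' processing notes the build was GRCm38, with DESeq and edgeR among the tools, whose use is not described. Which aligner and counter were used, and how reads of more than 1 locus were treated, is not given in the sources used here.

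Of 76 antisense entries, 38 overlapped a hairpin annotated on the other strand (GENCODE M21) and were moved to it. The other 38, at most 0.000706% of a library, were left out of totals. Names with the prefix mmu were brought to the form of the others. For levels, spread and correlations, entries of 1 mature name were summed unless RefSeq gave their loci different sequences, and for the arm ratios all loci of 1 name were summed. Tests used edgeR 4.0.16 (library as a block, Benjamini-Hochberg adjustment over all names or pairs with a mean of at least 10 reads), with DESeq2 1.42.0 as an alternative, and scipy 1.17.1. The log ratios and correlations used a prior count of 1. The fits were tested on simulated data. The simulated ratios were far smaller than the arm ratios of miR-26, so that range was not covered. All 15 pairs of libraries differed beyond counting. P-values of the pair fits and of the permutation tests rest on the spread between these samples, which includes library preparation. Those of the chi-square and Fisher's exact tests are set against counting error alone. The arm fit took 1 common spread for all names. The labels give no batch, so no value within a batch could be had. Named miRNAs are the members, their neighbours in mean CPM and the 5 highest r for each 5p arm. Members and lists were chosen with earlier results of these data known. Alternatives were other scalings, no minimum, no block, DESeq2, and leaving out hearts.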

Additional observations from a re-analysis of the deposited data

How the results depend on the processing

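Of 231 alternative values, 225 were classed as unchanged in direction and in side of the threshold. Among them are mean levels, shares and counts of calls, which have no threshold, so 225 is not a count of tests that held. The count of family pairs called, for example, went from 248 of 259 to 334 with no minimum count. That setting also tested more pairs, so these counts do not compare as shares. Leaving out 1 heart at a time, the arm ratio difference of miR-26b minus miR-26a ran from -5.33 to -5.12 on the log2 scale and no longer passed, since 5 hearts cannot give an exact permutation p below 0.0625. With no replicate block, the log2 ratios of 5p to 3p were 13.29 for miR-26a and 8.05 for miR-26b, and no call on a miR-26 name or pair changed. Tested by locus, they were 14.57 for Mir26a-1 and 13.06 for Mir26a-2, where the 5p reads are those booked on each locus. The Mir26a-1 share of the 3p reads ran from 6.73% without heart 4 to 9.52% as 1 heart was left out. The r of the 5p arms ran from 0.92 to 0.95 over other scalings and prior counts over 6 hearts, with adjusted p between 0.347 and 0.469. Depth limits the 3p arms: 10 reads correspond to between 1.66 and 2.52 CPM, above every value of miR-26a-1-3p.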
